A study of Homo sapiens with 12 samples.

Results

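The GATA factors and their FOG partners were examined as a family of 8 genes: GATA1, GATA2, GATA3, GATA4, GATA5 and GATA6, and the 2 FOG genes ZFPM1 (FOG1) and ZFPM2 (FOG2). The members were the lines of the expression table whose gene symbol is one of these names, and 8 of the 58365 gene lines matched, 1 for each gene. The table held 12 RNA-seq libraries from the human embryonic stem cell line H1 and cells derived from it, 3 libraries for each of 4 populations. The populations were undifferentiated H1 cells (hESCs), APLNR+ cells taken at day 2 (mesoderm, MES), CD31+CD34+ cells taken at day 5 (hemogenic endothelial progenitors, HEPs) and CD43+ cells taken at day 8 (hematopoietic progenitor cells, HPCs). The derived cells were grown in a defined medium with activinA and BMP4 for 2 days and with VEGF and bFGF afterwards. All 4 populations came from 1 unmodified cell line, so the 3 libraries of a population do not sample different donors, and p-values measure the spread between these libraries.

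The positions given here are those of GRCh38 (GENCODE release 29), found by symbol, since the table itself carried no coordinates. GATA1 lies at chrX:48786554-48794311 on the plus strand, GATA2 at chr3:128479427-128493185 on the minus strand, GATA3 at chr10:8045378-8075203 on the plus strand and GATA5 at chr20:62463497-62475970 on the minus strand. GATA6 lies at chr18:22169443-22202528 on the plus strand, ZFPM1 at chr16:88453317-88537016 on the plus strand, and GATA4 and ZFPM2 lie on chromosome 8. No 50-base stretch of the annotated transcripts of 7 of the genes was found in a transcript of any other gene. The exception was ZFPM2, where 24 of 7811 stretches (0.307%) also occurred elsewhere.

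GATA factors are zinc-finger transcription factors that bind the DNA sequence for which they are named. GATA1, GATA2 and GATA3 are known for their roles in blood: GATA2 in hemogenic endothelium and stem and progenitor cells, GATA1 in red cells and megakaryocytes, GATA3 in T cells. GATA4, GATA5 and GATA6 are known for heart and endoderm development. FOG proteins carry zinc fingers that contact the N-terminal finger of GATA factors rather than DNA, and they recruit repressor complexes such as NuRD and CtBP; FOG1 is the partner best known in blood and FOG2 the one best known in the heart.

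The DNA beside the start sites of the members and of blood genes that changed with them was read for GATA motifs, because GATA factors bind such letters. The RefSeq promoter table (GRCh38.p14, 250 bases before to 50 after each start) held 11 windows for 5 of the 8 genes. The letters searched were AGATAA with its variant AGATAG, and TGATAA with its variant TGATAG, on either strand. None of these appeared in any of the 11 windows of GATA1, GATA2, GATA3, GATA6 and ZFPM1, whereas 24.97% of all 35116 windows held at least 1 match. Among windows of the erythroid genes listed further on, 10 of 15 (66.7%) held a match, and among those of the megakaryocyte genes 6 of 10 (60%) did, over the 9 genes of each list that had a window. Windows of 1 gene can overlap. By gene, 77.8% and 66.7% of these held a match, against 29.1% of all genes. For the other lists the window share was 83.3% (mast cell and eosinophil), 38.5% (T cell), 37.5% (heart mesoderm) and 30.8% (blood partner). It was 25% (trophoblast and amnion), 21.4% (endoderm), 7.69% (FOG corepressors) and 0 for the antisense and other GATA-type genes. Base composition differed between the sets: the median GC content was 67.7% for the member windows, 57.7% for the erythroid, 53.8% for the megakaryocyte and 58.7% for all windows. A match is a description of these letters, and no binding was measured. The stretches below are shown because GATA1 and GATA2 were the most abundant GATA transcripts in CD43+ cells, and ALAS2, PLEK and ITGA2B were each among the 3 genes named for the largest rises of the erythroid or the megakaryocyte list at the step to CD43+ cells. PLEK, which rose more than ITGA2B, held no match in the stretch printed. Whether the rest of its window held one is not given here. Capitals mark a motif match; for ALAS2 the match is AGATAA on the opposite strand, with its first printed base 127 bases before the start, and for ITGA2B it is TGATAG, 102 bases before the start.
GATA1, chrX:48786434-48786553, plus strand: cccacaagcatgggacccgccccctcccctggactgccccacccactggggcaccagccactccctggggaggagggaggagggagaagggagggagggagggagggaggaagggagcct
GATA2, chr3:128493202-128493321, minus strand: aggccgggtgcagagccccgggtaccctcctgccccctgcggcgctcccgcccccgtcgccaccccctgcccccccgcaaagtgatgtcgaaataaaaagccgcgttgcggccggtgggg
ALAS2, chrX:55031072-55031131, minus strand: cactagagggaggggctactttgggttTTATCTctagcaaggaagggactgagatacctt
PLEK, chr2:68365053-68365172, plus strand: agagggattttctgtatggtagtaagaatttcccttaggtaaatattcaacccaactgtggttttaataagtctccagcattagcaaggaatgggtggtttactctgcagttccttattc
ITGA2B, chr17:44389719-44389778, minus strand: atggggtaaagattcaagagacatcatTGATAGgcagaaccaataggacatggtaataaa

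Expression is given as FPKM, fragments counted per transcript length and per mapped fragment of the library, so levels of different genes are compared per length. From the steps of the low values, the depth of the libraries relative to CD43+ replicate 3 was lowest in CD31+CD34+ replicate 1 (0.555) and highest in replicate 2 of the same cells (1.26), and 12297 to 13060 genes reached 1 FPKM. Replicate 1 was the shallowest library of every population, at 0.702 in H1 and 0.753 in both APLNR+ and CD43+ cells. Each sorted marker was present in the cells sorted for it, and some were as high or higher in a later population. APLNR had a mean of 383 FPKM in the APLNR+ libraries and of 403 in those of CD31+CD34+ cells, and PECAM1 (CD31) 55.2 in CD31+CD34+ and 95.9 in CD43+ cells. CD34 was highest in CD31+CD34+ cells (47.7) and SPN (CD43) in CD43+ cells (75.5). PTPRC, which encodes CD45, averaged only 0.197 FPKM in CD43+ cells. The housekeeping gene EEF1A1 was listed at 0 in 6 libraries (replicates 2 and 3 of H1, APLNR+ and CD43+), so a 0 in this table can be a failed estimate.

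In undifferentiated H1 cells the GATA genes were near 0, and each later population had its own mixture. GATA6 and GATA4 came first, in mesoderm; GATA2 dominated in HEPs; GATA1 joined GATA2 in HPCs, where GATA4 and GATA6 had fallen. All 8 members passed the filter of at least 1 FPKM in 3 or more libraries and were tested with the other genes that passed, 14840 in all. Changes are on the log2(FPKM + 1) scale, tested with limma, and a gene is said to have risen or fallen where the change was at least 2-fold at a Benjamini-Hochberg adjusted p under 0.05. In these bulk libraries, fewer cells of a type and less RNA per cell cannot be told apart.

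**Figure D1:**
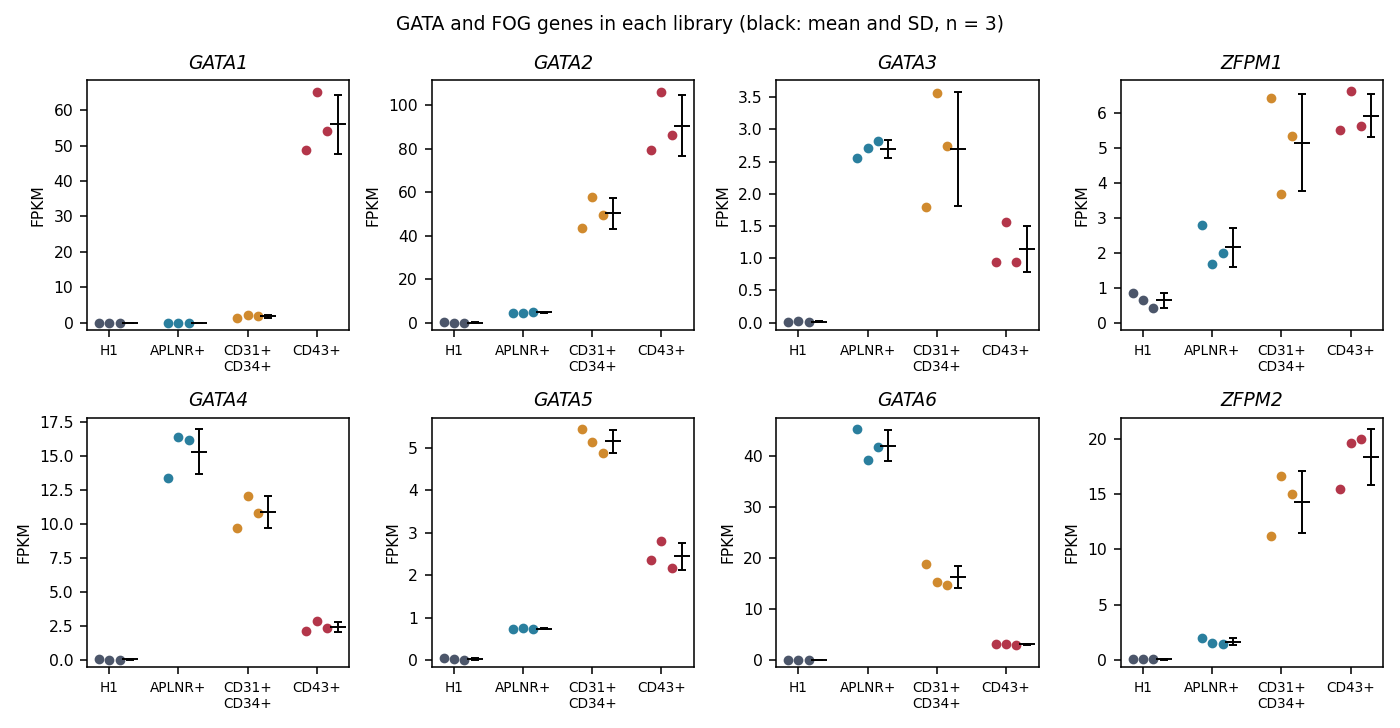
FPKM of each gene (vertical axes, a separate linear scale for each gene) in the 3 libraries of each population (points, replicates 1 to 3 from left to right), with the mean and SD in black. GATA4 and GATA6 were highest in APLNR+ cells, GATA5 in CD31+CD34+ cells, and GATA1, GATA2 and ZFPM2 in CD43+ cells; the GATA3 libraries of APLNR+ and CD31+CD34+ cells overlapped.

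From H1 to APLNR+ cells, 5 of the 8 genes rose and none fell: GATA2, GATA3, GATA4, GATA6 and ZFPM2. Of all genes tested, 15.9% changed at this step (8.30% rose and 7.62% fell). The libraries of 7 of the 8 genes did not overlap between these populations, against 66.0% of all genes. At the step to CD31+CD34+ cells 4 genes rose (GATA1, GATA2, GATA5 and ZFPM2) and 1 fell (GATA6), with 29.6% of all genes changed (12.5% rose and 17.1% fell). At the step to CD43+ cells only GATA1 rose and GATA4 and GATA6 fell, with 14.4% of all genes changed (5.58% rose and 8.79% fell). For these later steps, 7 and 6 of the 8 genes had libraries that did not overlap, against 75.7% and 58.0% of all genes.

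**Figure D2:**
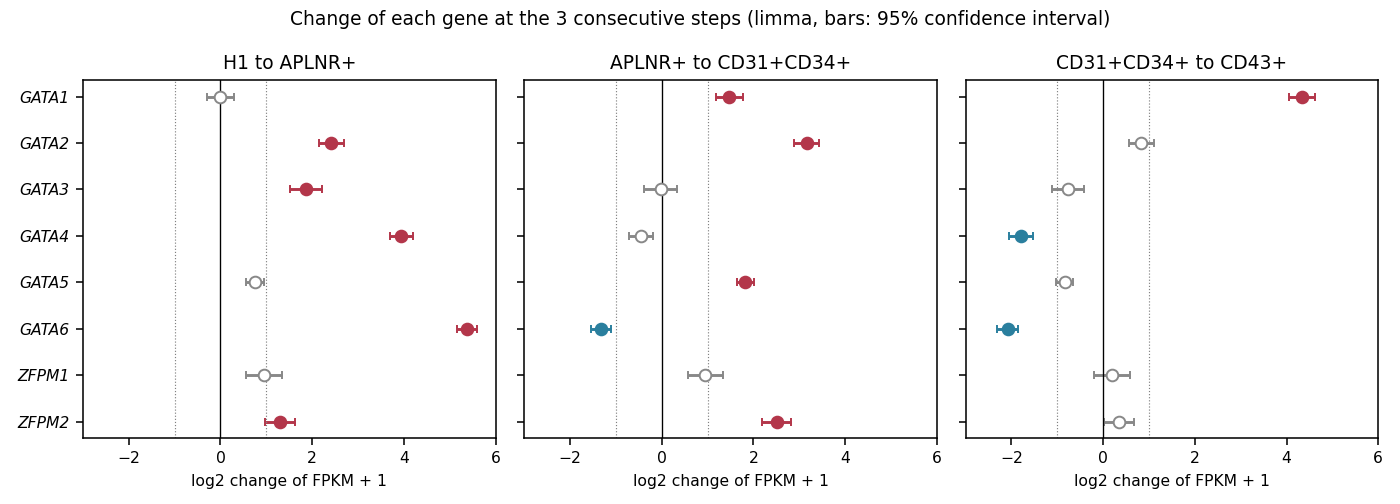
Log2 change of FPKM + 1 (horizontal axes) of each gene at the 3 consecutive steps, with 95% confidence intervals from limma. Red and blue points are genes that rose and fell, open grey points did not meet both limits, and dotted lines mark a 2-fold change; the largest change was that of GATA6 in the first panel (5.38) and, in the last panel, that of GATA1 (4.34).

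GATA1, the factor required for red cell and megakaryocyte maturation, was listed at 0.0179, 0 and 0.00758 FPKM in the 3 H1 libraries and at 0.0120, 0.0110 and 0 FPKM in the APLNR+ libraries. It reached 1.34, 2.30 and 1.84 FPKM in CD31+CD34+ cells and 48.8, 65.2 and 54.2 FPKM in CD43+ cells. The first 2 populations were alike at the bottom, the third was low and the fourth stood far above, with no overlap after mesoderm. The change was 1.47 ± 0.13 (SE) from APLNR+ to CD31+CD34+ cells (adjusted p = 8.68e-07) and 4.34 ± 0.13 from CD31+CD34+ to CD43+ cells (adjusted p = 2.28e-10), where the mean FPKM was 30.7-fold higher.

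GATA2, which acts earlier in hemogenic endothelium and blood progenitors, was at 0.1004, 0.0348 and 0.0714 FPKM in H1 cells and already at 4.49, 4.63 and 5.01 FPKM in APLNR+ cells. It was at 43.6, 57.6 and 49.6 FPKM in CD31+CD34+ cells and at 79.4, 106 and 86.2 FPKM in CD43+ cells. The 4 populations were ordered without overlap, and GATA2 never declined on average along the series. It rose by 2.42 ± 0.12 on the log2 scale at the first step (adjusted p = 8.49e-09) and by 3.16 ± 0.12 at the second (adjusted p = 7.76e-10). The last step gave a log2 change of 0.83 ± 0.12 (adjusted p = 0.000116, 95% confidence interval 0.57 to 1.10), which was under the 2-fold limit.

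GATA3, known for its part in T cell development, stayed low. Its FPKM values were 0.0135, 0.0206 and 0.0117 in H1, 2.55, 2.71 and 2.83 in the APLNR+, 1.79, 3.56 and 2.75 in CD31+CD34+ and 0.941, 1.56 and 0.940 in CD43+ libraries. It rose by 1.86 ± 0.16 on the log2 scale from H1 to APLNR+ cells (adjusted p = 1.02e-06). The APLNR+ and CD31+CD34+ libraries overlapped, with a log2 change of -0.03 (95% confidence interval -0.38 to 0.32), whose sign turned when CD31+CD34+ replicate 1 was left out (0.16). The value for CD43+ cells was lower than for CD31+CD34+ cells without overlap, at -0.77 ± 0.16 (limma, adjusted p = 0.00157), under the 2-fold limit on that scale. Its mean FPKM was 2.35-fold lower. This step met the limits with a pseudocount of 0.1 (-1.15) and after rescaling without small RNA genes (-1.03).

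GATA6, a regulator of heart and endoderm formation, was the most abundant family member in mesoderm. Its FPKM values were 0.0418, 0.0219 and 0.0363 in H1 and 45.2, 39.1 and 41.6 in APLNR+ libraries, then 18.7, 15.3 and 14.8 in CD31+CD34+ and 3.08, 3.07 and 3.01 in CD43+ libraries. The populations did not overlap. GATA6 rose by 5.38 ± 0.10 on the log2 scale at the first step (adjusted p = 2.15e-12). It then fell by 1.32 ± 0.10 (adjusted p = 2.04e-07) and by 2.08 ± 0.10 (adjusted p = 7.81e-09) on the log2 scale. From APLNR+ to CD43+ cells its mean FPKM was 13.8-fold lower. When each library was rescaled to the same sum (TPM), the fall from APLNR+ to CD31+CD34+ cells was -0.83 and no longer met the limits.

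GATA4, which works with NKX2-5 and TBX5 in heart precursors, followed GATA6 in outline. Its FPKM values were 0.112, 0.0256 and 0.0281 in H1, 13.4, 16.4 and 16.2 in the APLNR+, 9.70, 12.1 and 10.8 in CD31+CD34+ and 2.12, 2.86 and 2.35 in CD43+ libraries. It rose by 3.95 ± 0.12 at the first step on the log2 scale (adjusted p = 7.37e-11). The middle step was -0.46 ± 0.12 (adjusted p = 0.00380), under 2-fold, and its sign turned (0.028) when libraries were rescaled to TPM. GATA4 fell by 1.79 ± 0.12 on the log2 scale from CD31+CD34+ to CD43+ cells (adjusted p = 1.15e-07), where its mean FPKM was 4.45-fold lower.

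GATA5, known from endocardium and endoderm, peaked later than its relatives. Its FPKM values were 0.0555, 0.0169 and 0.00803 in H1, 0.726, 0.748 and 0.733 in the APLNR+, 5.44, 5.13 and 4.88 in CD31+CD34+ and 2.35, 2.80 and 2.18 in CD43+ libraries. The populations were ordered CD31+CD34+, CD43+, APLNR+ and H1, without overlap. From H1 to APLNR+ cells the log2 change was 0.76 ± 0.09 (limma, adjusted p = 1.40e-05), under the limit, while the mean FPKM was 27.4-fold higher. That first step met the limits with a pseudocount of 0.1 (2.74) and after rescaling without small RNA genes (1.24). GATA5 rose by 1.82 ± 0.09 on the log2 scale from APLNR+ to CD31+CD34+ cells (adjusted p = 4.39e-09), a 7.001-fold difference in mean FPKM. From CD31+CD34+ to CD43+ cells the log2 change was -0.84 ± 0.09 (adjusted p = 6.58e-06), under the limit on that scale, while the mean FPKM was 2.11-fold lower. GATA5 met the limits at that step with a pseudocount of 0.1 (-1.05) and after rescaling without small RNA genes (-1.05).

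ZFPM1, the FOG partner best known with GATA1, was the member with the highest FPKM in each H1 library. Its FPKM values were 0.845, 0.658 and 0.411 in H1, 2.79, 1.69 and 2.00 in the APLNR+, 6.45, 3.68 and 5.35 in CD31+CD34+ and 5.53, 6.64 and 5.65 in CD43+ libraries. The first 3 populations were ordered without overlap and the last 2 overlapped. The changes at the first 2 steps were 0.94 ± 0.18 (limma, adjusted p = 0.000739) and 0.95 ± 0.18 (adjusted p = 0.000427), just under 2-fold on the log2(FPKM + 1) scale. The mean FPKM was 3.38-fold and 2.39-fold higher at these steps. Both changes passed the limit with a pseudocount of 0.1 (1.63 and 1.21). The last step was 0.19 ± 0.18 (adjusted p = 0.383, 95% confidence interval -0.20 to 0.58). Over the longer span from APLNR+ to CD43+ cells ZFPM1 rose by 1.15 ± 0.18 on the log2 scale (adjusted p = 9.08e-05).

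ZFPM2, best known as the GATA4 partner in the heart, was highest in CD43+ cells, where GATA4 and GATA6 were lower than in APLNR+ cells. Its FPKM values were 0.0684, 0.0572 and 0.121 in H1, 2.00, 1.52 and 1.48 in the APLNR+, 11.2, 16.6 and 15.03 in CD31+CD34+ and 15.4, 19.6 and 19.99 in CD43+ libraries. It rose by 1.29 ± 0.15 on the log2 scale at the first step (adjusted p = 1.15e-05) and by 2.51 ± 0.15 at the second (adjusted p = 2.28e-08). The CD31+CD34+ and CD43+ libraries overlapped, with a change of 0.35 ± 0.15 (adjusted p = 0.0629, 95% confidence interval 0.03 to 0.67). In CD43+ cells ZFPM2 had a higher FPKM than ZFPM1 in each of the 3 libraries.

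Over the longer spans, all 8 genes rose from H1 to CD31+CD34+ cells, where 40.1% of all genes changed (16.9% rose and 23.2% fell), and all 8 rose from H1 to CD43+ cells, where 37.1% did (14.6% rose and 22.5% fell). Libraries did not overlap for any of the 8 genes in either comparison, against 79.0% and 76.3% of all genes. From APLNR+ to CD43+ cells GATA1 (5.81), GATA2 (3.99), ZFPM1 (1.15) and ZFPM2 (2.86) rose on the log2 scale, and GATA4 (-2.24) and GATA6 (-3.40) fell, with 33.6% of all genes changed (14.1% rose and 19.4% fell), and none of the 8 genes had overlapping libraries, against 75.4% of all genes. GATA5 had a log2 change of 0.98 in that comparison, just under the limit, and passed it without CD43+ replicate 1 (1.00) or replicate 3 (1.04). These comparisons share libraries with the consecutive steps. The rise of GATA3 from H1 to CD43+ cells (1.07) lost its call without CD43+ replicate 2 (0.93).

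The balance within the family was then measured inside each library, where shares and FPKM ratios do not depend on the scaling of that library. The summed FPKM of GATA1 to GATA6 was 0.120 to 0.342 in H1, 63.5 to 66.4 in the APLNR+, 80.6 to 96.0 in CD31+CD34+ and 137 to 182 in CD43+ libraries. In APLNR+ cells GATA6 supplied 64.1% ± 3.50 (SD, n = 3) of the sum and GATA4 23.4% ± 2.89. In CD31+CD34+ cells GATA2 supplied 57.6% ± 3.10, GATA6 18.9% ± 3.87 and GATA4 12.5% ± 0.393. In CD43+ cells GATA2 held 58.1% ± 0.263, while GATA1 held 36.0% ± 0.352 and the other four genes the remainder.

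**Figure D3:**
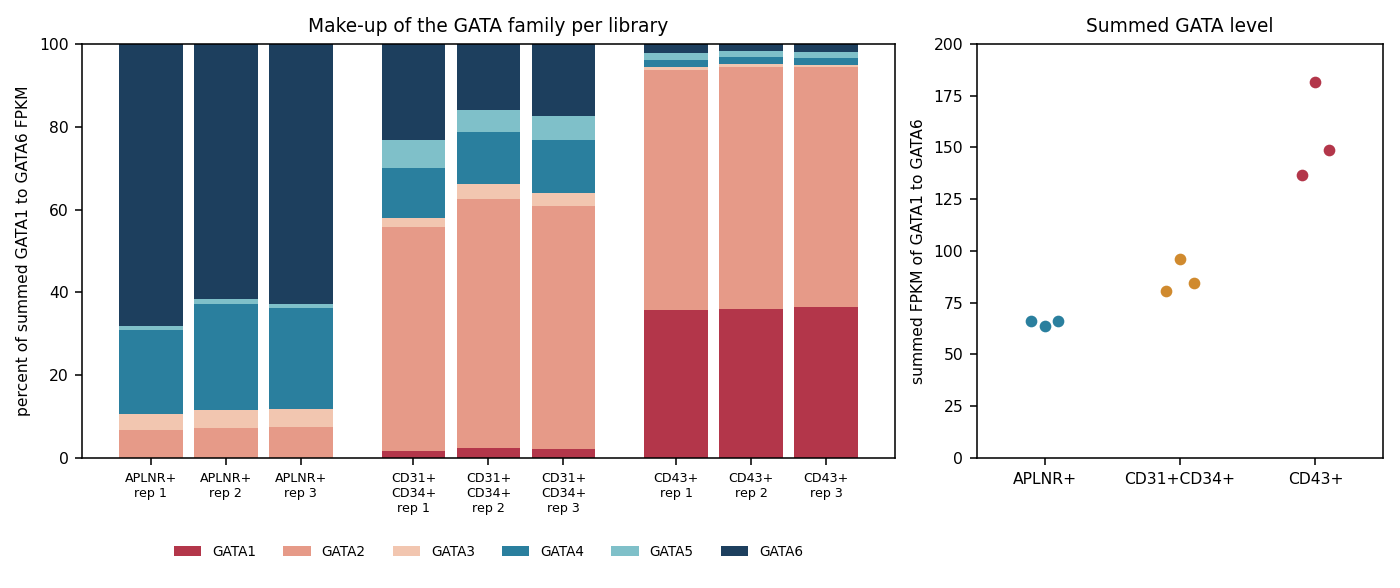
Left, percent of the summed GATA1 to GATA6 FPKM supplied by each gene in each APLNR+, CD31+CD34+ and CD43+ library (H1 is left out because its sum was at most 0.342 FPKM). Right, the summed FPKM per library; GATA1 to GATA3 (red shades) supplied 10.6% to 11.8% in APLNR+ and 94.5% to 95.2% in CD43+ libraries.

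The share held by GATA1, GATA2 and GATA3 together was 10.6%, 11.6% and 11.8% in the APLNR+ libraries and 57.99%, 66.2% and 64.0% in the CD31+CD34+ libraries. It rose further to 94.5%, 95.2% and 94.9% in the CD43+ libraries. The difference between APLNR+ and CD31+CD34+ cells was 51.4 percentage points (exact permutation test, two-sided, p = 0.1). With 3 libraries against 3 this test cannot give a p below 0.1, so the separation rests on the absence of overlap.

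The FPKM ratio of GATA1 to GATA2 was 0.0307, 0.0399 and 0.0372 in the CD31+CD34+ libraries and 0.615, 0.614 and 0.628 in the CD43+ libraries. On the log2(FPKM + 1) scale the mean ratio went from -4.19 to -0.68, a difference of 3.50 (exact permutation test, two-sided, p = 0.1, the smallest possible). GATA1 stayed below GATA2 in FPKM in each of the CD43+ libraries.

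The FPKM ratio of GATA6 to GATA4 was 3.38, 2.39 and 2.58 in the APLNR+ libraries and 1.93, 1.26 and 1.37 in the CD31+CD34+ libraries. The log2 ratio of FPKM + 1 differed by -0.86 without overlap (exact permutation test, two-sided, p = 0.1). GATA6 was thus less in excess of GATA4 in each CD31+CD34+ library than in any APLNR+ library.

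The FPKM ratio of ZFPM1 to ZFPM2 was 12.4, 11.5 and 3.39 in H1, 1.39, 1.11 and 1.35 in the APLNR+, 0.576, 0.221 and 0.356 in CD31+CD34+ and 0.358, 0.338 and 0.283 in CD43+ libraries. ZFPM1 was the higher FOG gene in every H1 and APLNR+ library and the lower in every later one. ZFPM2 made up 12.7% of the summed FOG FPKM in H1, 43.9% in the APLNR+, 73.0% in CD31+CD34+ and 75.4% in the CD43+ cells on average. Between the last 2 populations the log2 ratio differed by -0.15 with overlapping libraries (exact permutation test, two-sided, p = 0.8), and its sign turned (0.15) without CD31+CD34+ replicate 1, the shallowest library.

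**Figure D4:**
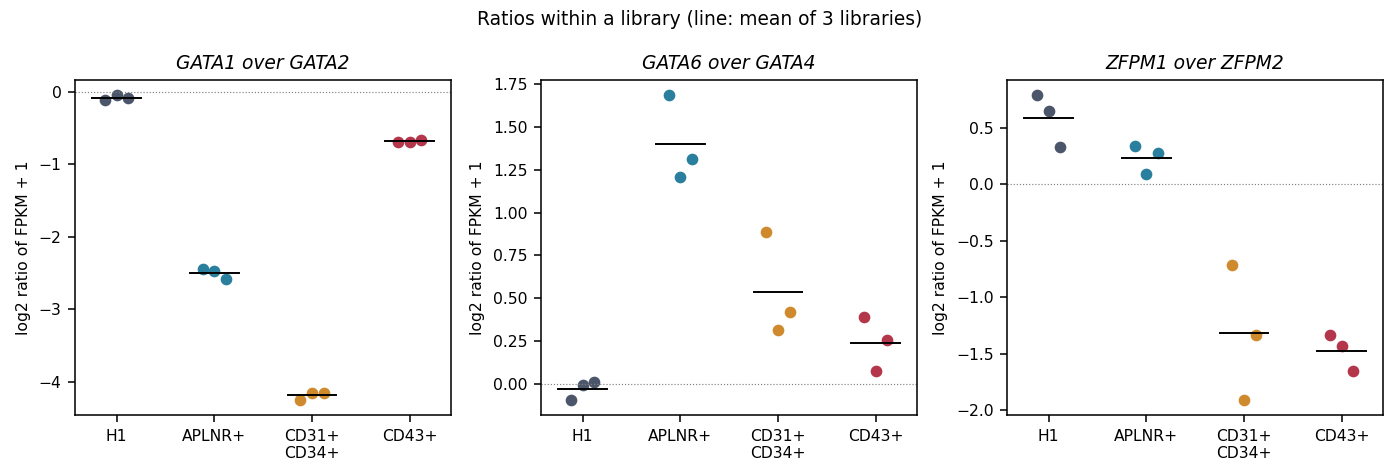
Log2 ratio of FPKM + 1 within each library (points) for GATA1 over GATA2, GATA6 over GATA4 and ZFPM1 over ZFPM2, with the mean of the 3 libraries as a line. The CD31+CD34+ and CD43+ libraries are separated for GATA1 over GATA2 (means -4.19 and -0.68) and overlap for ZFPM1 over ZFPM2.

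Antisense RNAs at GATA loci were read beside the members, because the library kit does not mark strand and nothing says that the counting did. GATA6-AS1 shares 240 exon bases (6.08% of the exon bases of GATA6) with GATA6 on the opposite strand, where reads of the pair cannot be told apart. GATA6-AS1 had mean FPKM values of 0.00975, 32.6, 5.13 and 0.639 along the 4 populations; it rose by 5.05 ± 0.14 and then fell by 2.46 ± 0.14 and 1.90 ± 0.14 on the log2 scale, so it rose and fell at the same 3 steps as GATA6. GATA2-AS1 overlaps the span of GATA2 but none of its exon bases; its means were 0.0425, 2.11, 16.3 and 13.1 FPKM, and it rose at the first 2 steps, as GATA2 did. GATA3-AS1, likewise without shared exon bases, had means of 0.00755, 1.21, 2.33 and 0.236 FPKM, and it rose at the first step and fell at the last. ZFPM2-AS1 was listed at 0 in all 12 libraries.

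Companion genes were taken from lists written from general knowledge of the factors' partners and tissues. For reading the counts of each list, 8.30%, 12.5% and 5.58% of all genes tested rose at the 3 steps, and 7.62%, 17.1% and 8.79% fell. Of 16 blood partner factors, all tested, 1 rose at the first step, 11 rose and none fell at the second, and 5 rose and 1 fell at the third. The median log2 change of the list at the second step was 3.07, against -0.01 for all genes. TAL1, which forms a complex with LMO2 and GATA factors on DNA, went from a mean of 0.0353 FPKM in APLNR+ to 82.9 in CD31+CD34+ cells (log2 change 6.34 ± 0.12). LMO2, the bridging subunit of that complex, went from 0.270 to 79.2 FPKM (5.98 ± 0.11), and FLI1, an ETS factor, from 0.387 to 103 FPKM (6.23 ± 0.14). At the third step SPI1 (PU.1, the myeloid factor whose activity is antagonistic to GATA1) rose from 0.474 to 12.8 FPKM (3.23 ± 0.12), and MYB and IKZF1 rose by 2.54 and 2.39 on the log2 scale. SPI1 was the 1 factor of the 16 that passed the filter through CD43+ libraries alone, so its rise was built into its being tested. RUNX1, a core factor of the endothelial-to-blood transition, rose at each of the 3 steps (1.38, 1.80 and 1.92).

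Of the erythroid genes 14 of 18 listed were tested. At the last step 9 rose and none fell, where 5.58% of all genes rose and 8.79% fell. Of the 14, 3 passed the filter through CD43+ libraries alone, so a rise at this step was built into their being tested. At the first step 3 rose and 1 fell, and at the second 3 rose and 2 fell. HBE1, the embryonic beta-like globin, went from 1.04 ± 0.340 FPKM in CD31+CD34+ to 525 ± 40.9 in CD43+ cells (SD, n = 3), and ALAS2, the erythroid enzyme of heme synthesis whose upstream sequence is printed above, from 0.832 ± 0.236 to 61.0 ± 10.7 FPKM. CA2, a carbonic anhydrase, had risen at the first step (3.23 ± 0.11). KLF1, an erythroid factor, rose at the second, from 1.56 to 19.3 FPKM between APLNR+ and CD31+CD34+ cells (2.99 ± 0.12), as did GYPC, a membrane glycoprotein of red cells (1.62 ± 0.10). TFRC, the transferrin receptor that proliferating cells of many kinds use, fell at that same step from 45.0 to 7.08 FPKM. GYPB rose at the first and last steps, but it has near-identical paralogs and its values are uncertain. SLC4A1, a marker of mature red cells, had a mean of 0.0295 FPKM in CD43+ cells and was not tested.

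Of the megakaryocyte genes, 14 of 15 listed were tested, of which 2 fell at the first step, 6 rose at the second and 12 rose at the third. The last count cannot be read as a result about the list: 7 of the 14 passed the filter through CD43+ libraries alone, against 1.584% of all genes tested, so they had to differ there. Without CD43+ replicate 1, 2 or 3, those 7 were no longer tested and 5 of the remaining 7 rose. ITGA2B, which encodes CD41, went from 9.39 ± 2.51 FPKM in CD31+CD34+ to 575 ± 8.75 in CD43+ cells (5.82 ± 0.20 on the log2 scale, SE). ITGB3, its partner subunit, went from 0.674 to 96.1 FPKM, and PLEK, a platelet signaling protein, from 0.0617 to 84.0 FPKM. NFE2, a factor of platelet formation, rose at both of the last steps (2.10 and 3.88). VWF, made by endothelium as well as megakaryocytes, rose a step earlier, from 0.653 to 10.4 FPKM (2.78 ± 0.09), and was at 9.30 FPKM in CD43+ cells.

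Heart mesoderm factors rose mostly at the first step. Of 15 tested (17 listed), 13 rose and none fell at the first step, 2 rose and 6 fell at the second, and 1 rose and 7 fell at the third. Among all genes tested, 8.30%, 12.5% and 5.58% rose at these steps and 7.62%, 17.1% and 8.79% fell. The ligands BMP4 and BMP2 rose by 5.67 and 5.64 on the log2 scale at the first step, and BMP2, MESP1 and MESP2, the latter factors of early mesoderm, fell by 3.96, 3.70 and 3.48 at the second. HAND1 went from 0.0569 to 44.9 FPKM between H1 and APLNR+ cells and from 22.6 to 1.59 FPKM between CD31+CD34+ and CD43+ cells. NKX2-5, the cardiac homeobox factor, peaked at 21.7 FPKM in CD31+CD34+ cells, after GATA4 and GATA6, and fell by 2.95 ± 0.10 on the log2 scale in CD43+ cells. TBX5, the T-box factor of the heart, was at or below 0.0062 FPKM on average in each population. MEF2C, which is used in heart, endothelium and megakaryocytes, was the exception that rose at the last 2 steps (3.22 and 1.46).

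**Figure D5:**
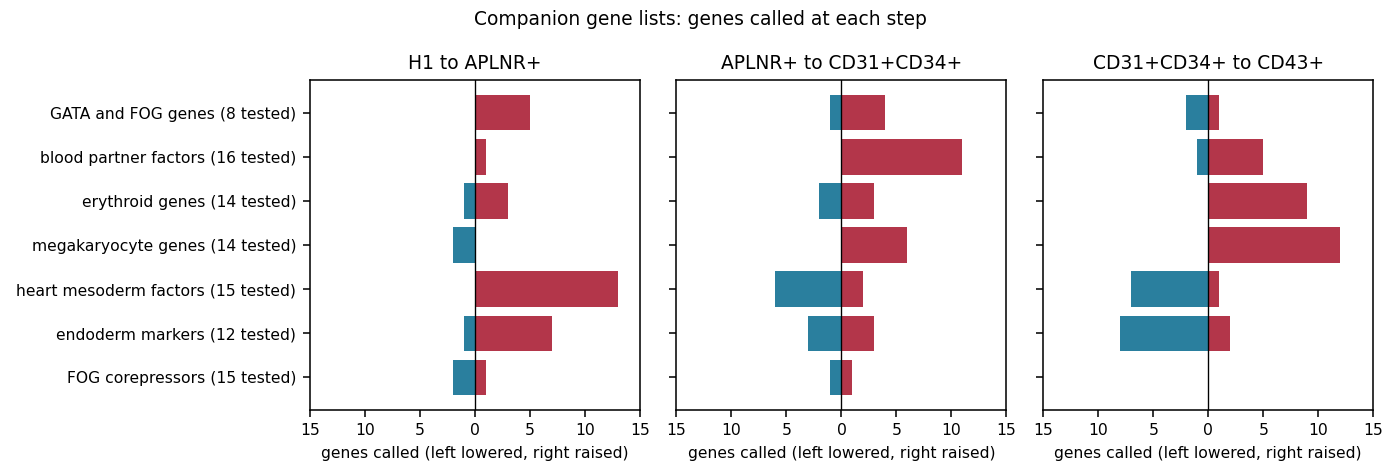
Number of genes (horizontal axes, lowered to the left and raised to the right) that met the limits at each of the 3 steps, for the GATA and FOG genes and 6 companion lists, with the number tested in parentheses. Heart mesoderm factors rose at the first step (13 of 15) and blood partner factors at the second (11 of 16). Of the 12 endoderm markers, 1 passed the filter through APLNR+ and 1 through CD31+CD34+ libraries alone, so they had to differ there. In the last panel, 7 of the 14 megakaryocyte and 3 of the 14 erythroid genes tested passed the filter through CD43+ libraries alone. So did 1 of the 16 blood partner factors and 1 of the 12 endoderm markers. Those genes had to differ there, so the 12 megakaryocyte genes raised are not a result about that list. When any 1 CD43+ library was left out, 5 of 7 tested megakaryocyte genes rose.

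Because GATA4 and GATA6 are also endoderm regulators, endoderm markers were read in the same libraries. Of 12 tested (15 listed), 7 rose and 1 fell at the first step, 3 rose and 3 fell at the second, and 2 rose and 8 fell at the third. Among all genes tested, 8.30%, 12.5% and 5.58% rose at these steps and 7.62%, 17.1% and 8.79% fell. Of the 12 markers, 1 passed the filter through APLNR+ libraries alone (GSC), 1 through CD31+CD34+ and 1 through CD43+ libraries alone. That each of these differed between that population and its neighbours was built into its being tested. The summed FPKM of the list was 17.8 to 18.7 in H1, 2279 to 2418 in the APLNR+, 76.6 to 80.0 in CD31+CD34+, and 24.0 to 29.8 in the CD43+ libraries. Most of the APLNR+ sum was CER1, at 2238 ± 67.4 FPKM; EOMES was at 56.5 and GSC at 20.7 FPKM, and all 3 are also genes of the primitive streak. SOX17, used by endoderm and by hemogenic endothelium, was at 17.5 FPKM in APLNR+ and 24.2 FPKM in CD31+CD34+ cells. The defining endoderm factors FOXA2 and HNF4A were at 0.392 and 0.102 FPKM in APLNR+ cells and at 0.899 and 1.25 FPKM in CD31+CD34+ cells. APOA1, a liver and yolk sac apolipoprotein, and PRDM1 fell at the last step by 2.01 and 1.39 on the log2 scale. The part of these markers in the GATA4 and GATA6 values was not tested.

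GATA3 was set beside T cell and trophoblast markers and GATA2 beside mast cell and eosinophil markers, the other cells in which these factors are well known. Of the T cell markers 5 of 12 were tested, 1 of which passed the filter through APLNR+ libraries alone. Among all genes tested, 8.30%, 12.5% and 5.58% rose at the 3 steps and 7.62%, 17.1% and 8.79% fell. Of the 5 markers, 1 rose and 1 fell at the first step, and 1 rose and 2 fell at the second. None met the limits at the third in limma, where 4 had an unadjusted p under 0.05. The gene that rose at the second step was CD3D, a subunit of the T cell receptor complex, from a mean of 0.0895 to 1.54 FPKM (0.621 to 2.86 in single CD31+CD34+ libraries), and it was at 2.25 FPKM in CD43+ cells. CD3E and CD3G were at or below 0.0334 FPKM on average in each population. The summed FPKM of the list was 64.7 to 79.0 in H1, 13.6 to 15.4 in the APLNR+, 13.5 to 16.4 in CD31+CD34+ and 13.0 to 18.03 in CD43+ libraries, the H1 sum being mostly LCK (60.5 FPKM). Of the trophoblast and amnion markers 5 of 14 were tested, 2 of which rose and 1 of which fell at the step where GATA3 rose. KRT7 was the one that fell (-1.81). TFAP2C was at 4.79 FPKM and TFAP2A at 1.47 FPKM in APLNR+ cells, and ELF5 was listed at 0 in all libraries. The sum of the list ran from 7.18 to 7.98 FPKM in H1 and from 8.04 to 9.07 FPKM in APLNR+ libraries. It ran from 9.49 to 9.84 FPKM in CD31+CD34+ and from 2.72 to 3.86 FPKM in CD43+ libraries. Of the mast cell and eosinophil markers 3 of 10 were tested, and PRG2 (0.183 to 15.7 FPKM) and HDC (0.594 to 9.73 FPKM) rose at the last step, 1 of the 3 having passed the filter through CD43+ libraries alone. TPSAB1 was listed at 0 in all libraries and CPA3 was at 0.520 FPKM in CD43+ cells.

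FOG proteins repress their targets through NuRD and CtBP complexes. All 15 FOG corepressor genes (NuRD subunits and CtBP proteins) were tested and reached at least 1 FPKM in every library. At the first step 1 rose and 2 fell, where 15.9% of all genes changed, and at the second 1 rose and 1 fell, where 29.6% did. The second count was 1 without APLNR+ replicate 3 or CD31+CD34+ replicate 1. At the last step none met both limits in limma, although 7 had an unadjusted and 6 an adjusted p under 0.05, with changes under 2-fold. HDAC2, a NuRD deacetylase, went from 64.8 to 17.7 FPKM at the second step (-1.81 ± 0.09). CTBP1, a co-repressor bound by FOG, went from 46.6 to 96.0 FPKM at the same step (1.03 ± 0.17). CHD3, a NuRD remodeler, went from 2.43 to 8.13 FPKM at the first (1.41 ± 0.10). CTBP2 and RBBP7 fell by 1.08 and 1.06 on the log2 scale at the first step. Among 5 other genes with GATA-type zinc fingers, TRPS1, a repressor, rose from 3.00 to 9.11 FPKM at the first step (1.33 ± 0.18), and ZGLP1, a germ cell factor, was the only one that rose at the last (1.38).

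The genes with the most similar profiles were found for each member by the root mean square difference over the 12 libraries of log2(FPKM + 1), each gene centred on its own mean. This is a description over libraries that share their 4 populations. Adding 1 to FPKM flattens low genes, so a low member can lie near a gene with smaller fold changes. GATA5 went from a mean of 0.0268 FPKM in H1 to 5.15 in CD31+CD34+ cells, but its nearest gene STRA6 from 4.12 to 30.7. For GATA1 the nearest were SPN (0.20), which encodes the CD43 antigen used for the sort, NFE2 (0.31), a megakaryocyte and erythroid factor, and TSPAN32 (0.39). For GATA2 they were RNASE1 (0.55), SLC16A3 (0.56) and BTK (0.59), all farther away than the nearest genes of any other member. For GATA3 they were PVR (0.16), KMT5A (0.18) and MAGED1 (0.20). GATA4 lay nearest to FGF10 (0.23), JUN (0.26) and COLEC12 (0.29), and GATA6 to ALPK2 (0.26), COLEC12 (0.31) and FAM20A (0.32), so COLEC12 stood near both. GATA5 lay nearest to STRA6 (0.089), FAM214B (0.11) and MYDGF (0.11). ZFPM1 lay nearest to HIST2H2AC (0.22), a histone gene of a multigene family whose values are uncertain, HEY1 (0.22) and EML3 (0.23), and ZFPM2 to CD44 (0.19), EMP3 (0.23) and C2orf88 (0.32). Within the family the closest pairs were GATA5 with ZFPM1 (0.43) and GATA4 with GATA6 (0.57), and the nearest member to GATA2 was ZFPM2 (0.85).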

How the data were processed

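RNA-seq of 12 libraries (4 populations, 3 libraries each) was analysed. Per the labels, Trizol was used for the RNA, an Illumina TruSeq kit turned 2 ug of it into each library, and the submitters' processing notes name BWA, Bowtie, RSEM and hg19 without roles or versions. The authors deposited FPKM values in 1 table, whose columns were matched to the libraries by title. Depth is not given as counts. Scaling between libraries is not given in the sources used here. For repeated symbols the line with the highest mean was used.

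Values were tested as log2(FPKM + 1) with limma 3.58.1 (R 4.3.3; 4 groups in 1 model, trend, Benjamini-Hochberg per comparison) over 14840 genes with at least 1 FPKM in at least 3 libraries; the pseudocount understates changes of low genes. The procedure was tested on simulated data. Within-library ratios were compared with exact permutation tests (scipy 1.17.1). Named genes were the 8 members, the 3 nearest profiles of each, the sorting markers, EEF1A1, and up to 3 genes per list and step with the largest changes and a mean of at least 5 FPKM; RUNX1, SLC4A1, TBX5, MEF2C, FOXA2, HNF4A, CD3D, CD3E, CD3G, TFAP2A, TFAP2C, ELF5, TPSAB1, CPA3, ZGLP1, PTPRC and the antisense RNAs outside it were named after their values were seen. The members and lists were chosen with earlier results of these data known. Alternatives covered pseudocount, filters, scaling, fold limit, replicate block, model and each library left out. Sequences came from RefSeq promoters (GRCh38.p14).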

Additional observations from a re-analysis of the deposited data

How the results depend on the processing

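Across all settings, 1170 of 1230 values for single members kept their direction and their side of the limits, 34 passed the limits newly, 16 lost them and 10 changed sign. Of 858 counts for companion lists, 758 stayed within 1.5 times. With a 4-fold limit the members that changed were 3 (H1 to APLNR+), 2 (APLNR+ to CD31+CD34+), 5 (H1 to CD31+CD34+) and 4 (H1 to CD43+). Of all 14840 genes, 382 rose and 187 fell in the first of these and 433 and 442 in the second. In the third 792 rose and 979 fell, and in the fourth 712 rose and 952 fell. From CD31+CD34+ to CD43+ cells the members that changed were 5 with a pseudocount of 0.1, 5 after rescaling without small RNA genes and 6 with no minimum change. Of 14840 genes, 828 rose and 1305 fell there in the fit described above, and 1427 and 2178 with a pseudocount of 0.1. With no minimum change 3840 rose and 4121 fell, and 880 and 1990 of 16766 after that rescaling. With a mean of at least 5 FPKM, which leaves fewer members tested, the members that changed were 5 from H1 to CD31+CD34+ and 5 from H1 to CD43+ cells. Of the 8622 genes tested then, 1700 rose and 2052 fell in the first and 1370 and 1939 in the second. Leaving out each library in turn gave 5 to 6, 5 to 6, 3 to 3, 8 to 8, 6 to 7 and 7 to 8 members in the order of the comparisons (3 consecutive steps, H1 to CD31+CD34+, APLNR+ to CD43+, H1 to CD43+). ZFPM1 passed 2-fold at the first 2 steps with a pseudocount of 0.1 (1.63 and 1.21), rescaling over all genes (1.05 and 1.32) or without small RNA genes (1.33 and 1.06), at the second with quantile normalization (1.10), and at each without some single libraries.

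The GATA1 to GATA2 difference was 4.04 with a pseudocount of 0.1 and 3.76 after rescaling without small RNA genes, and 3.47 to 3.52 without single libraries. The share of GATA1 to GATA3 moved by 16.6 points when log2(FPKM + 1) values were summed in place of FPKM, and by 49.6 to 53.7 points without single libraries. The ZFPM1 to ZFPM2 difference changed sign in replicates 2 and 3 alone (0.0796) and ran from -0.45 to 0.15 without single libraries. Among members with changes near 0, GATA1 from H1 to APLNR+ changed sign after rescaling to the same sum over all genes (TPM) (0.00286) or without small RNA genes (0.000268) and in replicates 2 and 3 alone (0.00244), and ran from -0.00729 to 0.00554 without single libraries. GATA3 from APLNR+ to CD31+CD34+ cells changed sign with quantile normalization (0.13), rescaling over all genes (0.39) and replicates 2 and 3 alone (0.13), and ran from -0.19 to 0.16 without single libraries. GATA4 at that step changed sign with rescaling over all genes (0.028). The cause was not tested.

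Rescaling over all genes moved the median of all genes by 0.24, 0.39 and 0.14 at the 3 steps, and by 0.63 (H1 to CD31+CD34+), 0.57 (APLNR+ to CD43+) and 0.79 (H1 to CD43+). It moved the share of rises among changed genes from 52.1%, 42.3% and 38.8% to 72.1%, 73.1% and 49.4% at the 3 steps, and from 42.2%, 42.1% and 39.3% to 77.1%, 75.4% and 80.7% over the longer spans. Without small RNA genes, which took 10.4% to 66.2% of the summed FPKM of a library, that share was 63.3%, 40.6% and 30.7% at the 3 steps and 49.9%, 34.4% and 42.2% over the longer spans.

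Replicate numbers were not taken to pair the libraries, since 12 of 18 same-numbered pairs, not all, had a correlation of deviations over 0.1, and 6 of 12 libraries correlated best with their own number. The replicate 1 libraries did deviate together, at 0.196 to 0.429 in their 6 pairs and at -0.404 to -0.0611 against the other numbers. In replicates 2 and 3 alone, 5, 5 and 3 members changed at the 3 steps, as with all libraries. Of the 13581 genes tested there, 1092, 1934 and 663 rose and 836, 2448 and 1262 fell. With the replicate number as a block, 2369, 4410 and 2140 genes changed at the 3 steps against 2363, 4400 and 2133, with 5, 5 and 3 members as before. The within-library differences were the same under the block (3.50, -0.86, -0.15 and 51.4), where 3 pairs allow no p below 0.25.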
